A study of Mus musculus with 36 samples.

Results

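Slow fibre contractile genes encode the thin filament regulators, myosin chains and oxygen carrier that distinguish slow-twitch from fast-twitch muscle fibres. The group was defined by 8 gene symbols, *Myh7*, *Tnni1*, *Tnnt1*, *Tnnc1*, *Myl2*, *Myl3*, *Tpm3* and *Mb*, looked up in the probe annotation of the arrays. Of the 8 genes, 5 were measured, each by 1 oligonucleotide printed as 2 spots, among 6540 different genes and 8129 oligonucleotides in all. No oligonucleotide of the annotation carries the symbols *Myh7*, *Myl2* or *Myl3*, so the slow myosin heavy chain and the slow myosin light chains are not analysed here.

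Expression was profiled in quadriceps muscle of beta-sarcoglycan-deficient (BSG) and gamma-sarcoglycan-deficient (GSG) mice at 1, 2.5 and 4 weeks, every 2 weeks from 6 to 14 weeks, and at 20 weeks. Each strain contributed 2 mice at each of the 9 ages, mostly littermates by the study's account, which makes 36 mice. Each strain is deficient in 1 sarcoglycan, a protein of the dystrophin-associated complex at the muscle membrane. By the study's account, a mutation in 1 component destabilises the complex as a whole. Both strains develop a muscular dystrophy, whereas wild-type and dystrophin-deficient mice are not analysed here. The 36 two-colour arrays form 4 closed loops, 2 per strain, in which each mouse is set against the mouse of the preceding age and the 1 week mouse closes the loop against the 20 week mouse. Values are log2 ratios of a later age to the 1 week mouse of the same loop, so that the change with age can be compared between strains and the level itself cannot.

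In a muscle fibre, calcium binds troponin C, and the troponin complex then moves tropomyosin on the actin filament so that myosin can bind. Slow and fast fibres build this switch from different genes. Slow fibres use *Tnnc1* (calcium-binding subunit), *Tnni1* (inhibitory subunit), *Tnnt1* (tropomyosin-binding subunit) and *Tpm3* (slow skeletal tropomyosin), where fast fibres use *Tnnc2*, *Tnni2*, *Tnnt3* and *Tpm1*. *Mb* encodes myoglobin, the oxygen store of oxidative fibres. The quadriceps of the mouse is a predominantly fast muscle, and slow troponins are also made in muscle around birth. In whole muscle, fewer fibres of a type and less RNA per fibre cannot be told apart.

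The 3 slow troponin genes varied together from array to array, and the 250 bases before the transcription start of each are shown for that reason, from RefSeq on GRCm38.p6 and written 5′ to 3′ on the strand of the gene. Capitals mark 3 short motifs searched on both strands: the E-box CANNTG, the MCAT motif CATTCC and the CACCC box, whose match on the opposite strand reads GGGTG. The *Tnni1* window lies at chr1:135799171-135799420 on the plus strand, the *Tnnt1* window at chr7:4515976-4516225 on the minus strand and the *Tnnc1* window at chr14:31208062-31208311 on the plus strand. *Tnni1* has 2 annotated starts, of which the first is shown.
Tnni1: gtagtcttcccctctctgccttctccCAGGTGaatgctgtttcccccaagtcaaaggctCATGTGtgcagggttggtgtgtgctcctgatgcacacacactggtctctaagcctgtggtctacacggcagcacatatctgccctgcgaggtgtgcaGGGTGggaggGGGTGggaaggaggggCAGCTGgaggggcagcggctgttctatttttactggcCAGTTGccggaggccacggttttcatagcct
Tnnt1: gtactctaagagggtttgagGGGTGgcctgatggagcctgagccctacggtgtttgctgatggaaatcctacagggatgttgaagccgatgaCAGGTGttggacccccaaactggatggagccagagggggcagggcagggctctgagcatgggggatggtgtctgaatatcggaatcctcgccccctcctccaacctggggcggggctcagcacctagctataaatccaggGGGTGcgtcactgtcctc
Tnnc1: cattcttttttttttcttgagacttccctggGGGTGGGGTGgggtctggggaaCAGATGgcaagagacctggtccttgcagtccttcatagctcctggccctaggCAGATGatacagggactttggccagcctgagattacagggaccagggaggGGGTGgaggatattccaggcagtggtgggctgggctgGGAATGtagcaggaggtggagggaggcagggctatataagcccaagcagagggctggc
The *Tnni1* window holds 4 E-boxes and 2 CACCC boxes, the *Tnnt1* window 1 E-box and 2 CACCC boxes, and the *Tnnc1* window 2 E-boxes, 3 CACCC boxes and 1 MCAT motif. Of 32851 such windows in the table, 66.2% hold an E-box, 52.0% a CACCC box and 12.6% an MCAT motif. The consensus motifs of MEF2 and of the CArG box, found in 2.92% and 1.47% of all windows, match none of the 3. These are matches of letters and were not tested as binding sites.

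Between 1 and 20 weeks, averaged over both strains, *Tnnt1* fell 2.70-fold and *Tpm3* rose 1.65-fold. *Tnni1* and *Tnnc1* also had lower mean values at 20 weeks and *Mb* a higher one, but none of these 3 passed the test. In this comparison 2 of the 5 measured genes were called at an adjusted p below 0.05, where 5.79% of all 8129 oligonucleotides were called, 1.7% with a rise and 4.1% with a fall.

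For *Tnnt1*, the log2 ratio of 20 weeks to 1 week was -2.11 and -0.61 in the BSG mice of loops 1 and 2 and -0.96 and -2.06 in the GSG mice. All 4 mice lay below the 1 week mouse of their loop, as they did for 13.5% of all oligonucleotides. The mean of both strains was -1.43 ± 0.36 (SE, limma, adjusted p = 0.0147), with -1.36 ± 0.51 in BSG (adjusted p = 0.249). In GSG alone it was -1.51 ± 0.51 (adjusted p = 0.107). Neither strain alone passed the test, and the call of the mean was lost without loop 1 of BSG (-1.06) or loop 2 of GSG (-1.16), the loops of the 2 lowest mice. On the array that sets the 1 week mouse directly against the 20 week mouse, the 1 week channel was brighter in all 4 loops, by 1.88 and 0.96 in BSG and 1.20 and 2.35 in GSG (log2). The 1 week mouse was taken as the Cy5 channel on each of these arrays, so the values include any dye effect. The same arrays are part of the fit.

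*Tnni1* ratios at 20 weeks were -1.64 and -0.08 in BSG and -0.33 and -1.13 in GSG. These 4 mice were also all below 1 week, but one BSG mouse differed from its 1 week mouse by less than 0.1. The mean of both strains was -0.80 ± 0.31 (adjusted p = 0.150), and -0.86 ± 0.43 in BSG and -0.73 ± 0.43 in GSG. *Tnnc1* ratios were -1.60 and 0.10 in BSG and -0.82 and -1.37 in GSG, with 3 of 4 mice below 1 week. The mean was -0.92 ± 0.41 (adjusted p = 0.253), with -0.75 ± 0.59 in BSG and -1.10 ± 0.59 in GSG. Without loop 2 of BSG, *Tnni1* (-1.19) and *Tnnc1* (-1.35) were called as well, and *Tnnc1* also with duplicate spots as separate observations (-0.92, adjusted p = 0.039). For each of the 3 troponins the 2 mice of a strain were further apart than the 2 strain means.

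*Tpm3* behaved differently from the troponins. Its ratios at 20 weeks were 0.47 and 0.52 in BSG and 0.96 and 0.93 in GSG, so the 2 mice of a strain lay within 0.1 of each other. All 4 mice were above 1 week, as for 8.72% of all oligonucleotides. The mean of both strains was 0.72 ± 0.19 (adjusted p = 0.0218). The rise was called in GSG (0.95 ± 0.27, adjusted p = 0.0487), where 3.74% of all oligonucleotides were called, and not in BSG (0.49 ± 0.27, adjusted p = 0.514), where 1.28% were. The difference between the strains was -0.45 ± 0.38 (BSG minus GSG, 95% confidence interval -1.24 to 0.33, adjusted p = 0.857), and the GSG call was lost when any 1 of the 4 loops was left out. Without any 1 loop the mean of both strains stayed between 0.71 and 0.73, but its call was also lost.

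*Mb* had the smallest change. Its ratios at 20 weeks were 0.24 and 0.42 in BSG and 0.45 and 0.30 in GSG, with a mean of 0.36 ± 0.17 (adjusted p = 0.294). The 2 spots of the *Mb* oligonucleotide correlated at r = 0.304 over 36 arrays, against 0.693 for *Tnni1*, 0.847 for *Tnnt1*, 0.878 for *Tnnc1* and 0.861 for *Tpm3*, and a median of 0.322 over all oligonucleotides. The log ratios of *Mb* also varied least, with an SD of 0.354 over the arrays against 0.56 for *Tpm3* and 0.824 to 1.13 for the troponins. The SD within its spot pairs was 0.369, below that of *Tnni1* (0.493), *Tnnt1* (0.505) and *Tnnc1* (0.378) and above that of *Tpm3* (0.245).

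**Figure D1:**
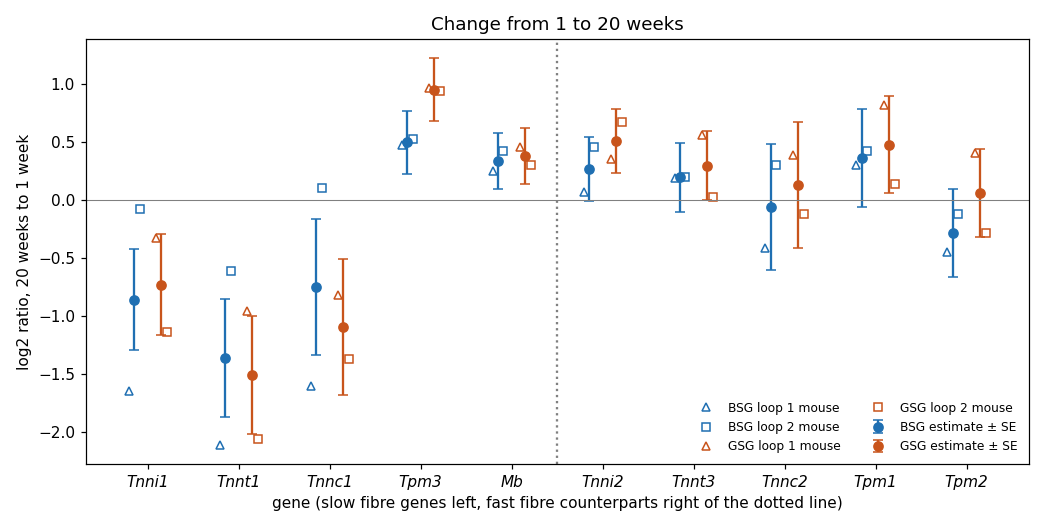
Log2 ratio of 20 weeks to 1 week (vertical axis) for the 5 measured slow fibre genes and 5 fast fibre counterparts (horizontal axis). Filled circles with bars are the estimate ± SE per strain, and open triangles and squares the single mice of loops 1 and 2. The slow troponins lie mostly below 0 with widely spaced mice, *Tpm3* lies above 0 with closely spaced mice, and no fast counterpart was called, their estimates lying between -0.29 and 0.51.

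*Tpm3* was already higher at the first later age. At 2.5 weeks its ratios were 1.22 and 0.80 in BSG and 1.38 and 0.79 in GSG. The mean of both strains was 1.05 ± 0.19 (adjusted p = 0.0134), at an age when 0.418% of all oligonucleotides were called. It was the one member called at this age, and the call was lost without loop 1 or loop 2 of BSG or without loop 1 of GSG. The arrays that compare 2.5 weeks with 1 week directly gave 1.40 and 1.05 in BSG and 1.58 and 0.99 in GSG. They are part of the fit and have 2.5 weeks in the same channel each time, so they include any dye effect. Over all 8 later ages *Tpm3* was above 1 week in 32 of 32 mice, with a lowest ratio of 0.06, a median of 0.95 and a highest ratio of 2.11, a pattern seen for 0.332% of all oligonucleotides. These 32 values rest on 4 mice of 1 week, and every ratio within a loop shares its 1 week mouse. The highest estimate in BSG was 1.42 ± 0.43 at 8 weeks and in GSG 1.16 ± 0.41 at 12 weeks. No mean of both strains from 4 to 14 weeks was called, the estimates being 0.69 to 1.23, but with a dye term those of 8 weeks (adjusted p = 0.0143), 12 weeks (0.0219) and 14 weeks (0.0395) were. Over the alternative settings the lowest means were -0.28 at 4 weeks, 0.06 at 6, 0.50 at 8, 0.46 at 10, 0.64 at 12 and 0.53 at 14 weeks. The *Tpm3* gene also makes tropomyosins of other cells by alternative splicing, and which transcripts the oligonucleotide binds is not given in the sources used here.

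**Figure D2:**
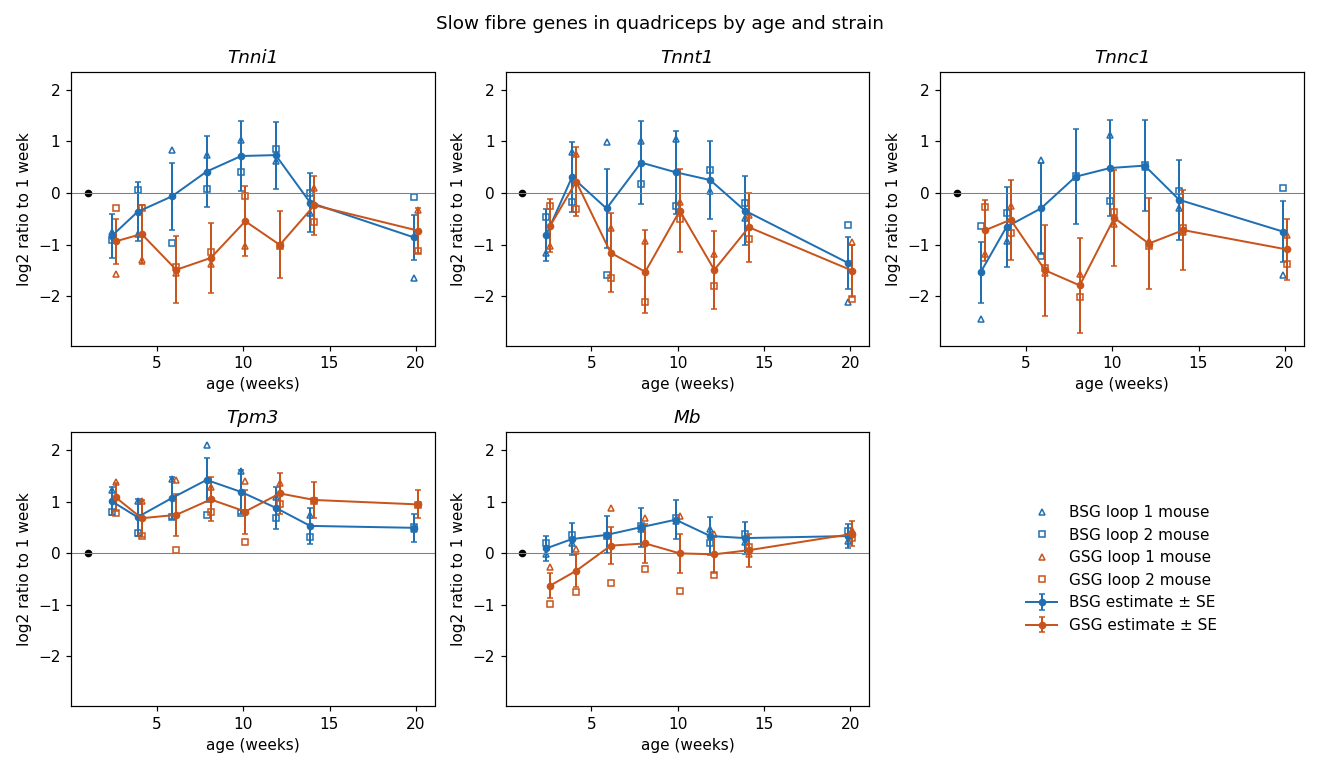
Log2 ratio to the 1 week mouse (vertical axis) against age in weeks (horizontal axis) for the 5 measured slow fibre genes. Lines with filled circles are estimates ± SE in BSG (blue) and GSG (orange), open symbols are single mice, and the black point is 1 week, set to 0. *Tpm3* is above 0 in 32 of 32 mice, and the 3 troponins lie above 0 in BSG and below 0 in GSG at 8 and 12 weeks.

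At 2.5 weeks the 3 slow troponins lay below 1 week in all 4 mice. The ratios were -0.76, -0.91, -1.58 and -0.30 for *Tnni1*, -1.15, -0.47, -1.02 and -0.24 for *Tnnt1*, and -2.45, -0.63, -1.18 and -0.27 for *Tnnc1*, in the order BSG loops 1 and 2 and GSG loops 1 and 2. All 4 mice were below 1 week at this age for 10.7% of oligonucleotides, and none of the 3 genes was called in the mean of both strains. Their means were -0.89 ± 0.31 (*Tnni1*, adjusted p = 0.302), -0.72 ± 0.36 (*Tnnt1*, adjusted p = 0.612) and -1.13 ± 0.41 (*Tnnc1*, adjusted p = 0.346). Over all later ages, *Tnni1* was below 1 week in 22 of 32 mice, a count that 24.5% of all oligonucleotides reached. *Tnnt1* and *Tnnc1* were each below in 24 of 32, as 16.3% of oligonucleotides were at least as often. *Mb* was above 1 week in 23 of 32, a count reached by 13.6%.

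The time course of the slow troponins between 2.5 and 20 weeks was not alike in the estimates of the strains, but no test of the difference passed. In BSG the estimates of all 3 were negative at 2.5 weeks, positive at 8, 10 and 12 weeks, and negative at 14 and 20 weeks. In GSG they were negative at every later age except for *Tnnt1* at 4 weeks (0.22 ± 0.67). At 8 weeks, the *Tnni1* ratios were 0.75 and 0.09 in BSG and -1.37 and -1.15 in GSG. *Tnnt1* ratios were 1.01 and 0.17 in BSG and -0.94 and -2.12 in GSG. *Tnnc1* ratios were 0.30 and 0.33 in BSG and -1.56 and -2.02 in GSG. Both BSG mice were thus above and both GSG mice below 1 week for all 3 genes, as for 4.64% of all oligonucleotides taken singly. The same was seen for all 3 genes at 12 weeks, as for 5.24% of all oligonucleotides taken singly. At 10 weeks it was seen for *Tnni1* and not for the others, and at 6 weeks for none of the 3. The 3 genes vary together from array to array and all ages share the 1 week mice. These sightings are therefore not independent. At 6 weeks the 2 BSG mice lay on opposite sides of 1 week for *Tnni1* (0.84 and -0.96), *Tnnt1* (1.00 and -1.60) and *Tnnc1* (0.63 and -1.23). At 10 weeks they did so for *Tnnt1* (1.05 and -0.24) and *Tnnc1* (1.13 and -0.16). In loop 1 of BSG, duplicate spots agreed poorly on the arrays of 8, 10, 12 and 14 weeks against the preceding age. Over all oligonucleotides they correlated at 0.24, 0.02, -0.10 and 0.19. On the array of 10 against 8 weeks, the *Tnnt1* spots read -1.35 and 0.98. The loop 1 ratios of BSG at these ages rest in part on these arrays and are less certain.

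The difference between the strains at 8 weeks (BSG minus GSG) was 1.68 ± 0.97 for *Tnni1* (95% confidence interval -0.32 to 3.67), 2.12 ± 1.14 for *Tnnt1* (-0.23 to 4.46) and 2.11 ± 1.31 for *Tnnc1* (-0.59 to 4.81), each with an adjusted p of 0.999. At this age 0 of 8129 oligonucleotides differed between the strains after adjustment, and 2.41% had an unadjusted p below 0.05. These intervals include both no difference and a large one. The residual SD of the 3 genes was 0.71, 0.83 and 0.96, against a median of 0.309 over all oligonucleotides, and the SE was larger for ages in the middle of a loop. The SE of a single strain at 8 weeks was 0.80 for *Tnnt1*, against 0.51 at 20 weeks. The temporal Hotelling test, which compares second order polynomials fitted to the profiles of the strains, gave p-values of 0.375 for *Tnni1*, 0.731 for *Tnnt1*, 0.328 for *Tnnc1*, 0.592 for *Tpm3* and 0.197 for *Mb*. It selected 0 of 8129 oligonucleotides after adjustment (0 to 75 over the alternatives), and 4.4% had an unadjusted p below 0.05. The study's own pairwise tests list genes that differ between these strains, *Matn2* among them. The 0 therefore does not mean that no gene differs. For *Tnni1*, which the study lists as a potential marker of dystrophin-deficient mice, its pairwise test found no significant difference between BSG and GSG. The quadratic coefficients of the troponins were -0.11 (*Tnni1*), -0.13 (*Tnnt1*) and -0.13 (*Tnnc1*) in BSG, a profile with a maximum, and 0.01, -0.03 and 0.01 in GSG.

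Comparing 6 to 20 weeks with 1 to 4 weeks, none of the 5 genes was called in BSG or GSG, where 0.0246% and 0.16% of all oligonucleotides were. The estimates in BSG were 0.53 for *Tnni1*, 0.04 for *Tnnt1* and 0.76 for *Tnnc1*, and in GSG -0.30, -0.98 and -0.68. None of these 10 estimates had an unadjusted p below 0.05. The moderated F-test for a change at any age called 0 of the 5 in each strain, where 0.0984% of all oligonucleotides were called in BSG and 0.59% in GSG. Its unadjusted p was below 0.05 for *Tnnt1* and *Tpm3* in both strains (*Tnnt1* 0.0258 in BSG and 0.00315 in GSG, *Tpm3* 0.0205 and 0.00457).

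The log ratios of the slow troponins moved together from array to array. Over the 36 arrays the log ratios of *Tnnt1* and *Tnnc1* correlated at r = 0.879, those of *Tnni1* and *Tnnc1* at 0.756 and those of *Tnni1* and *Tnnt1* at 0.730. Taking loop 1 minus loop 2 of the same strain and ages, which removes what the 2 mice of an age have in common, the correlations over 18 differences were 0.925, 0.604 and 0.583. The points share mice, since each mouse is on 2 arrays, and the genes share each array's labelling, so these values are descriptions.

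**Figure D3:**
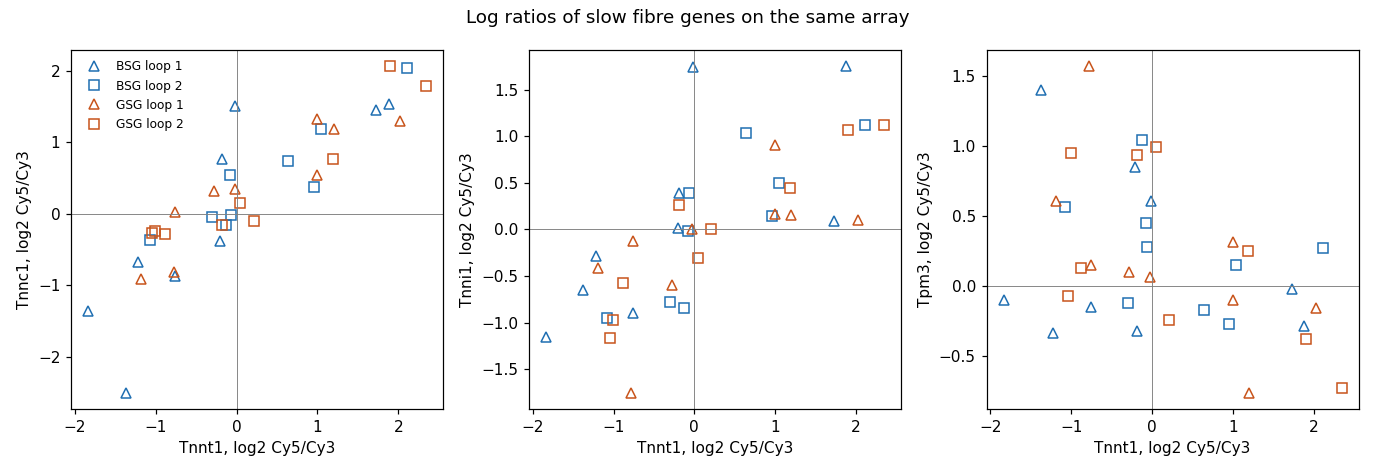
Log2 ratio of Cy5 to Cy3 on each of the 36 arrays for *Tnnt1* (horizontal axes) against *Tnnc1*, *Tnni1* and *Tpm3* (vertical axes), with strains by colour and loops by symbol. The first 2 panels rise along the diagonal (r = 0.879 and 0.730), and the third shows a scattered relation of opposite sign (r = -0.450).

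*Tpm3* had the opposite sign against all 3 troponins. Its correlations with *Tnni1*, *Tnnt1* and *Tnnc1* were -0.404, -0.450 and -0.490 over the arrays and -0.129, -0.093 and -0.246 over the differences. Its closest neighbours among the fast counterparts were *Tpm1* (0.578 and 0.708) and *Tnnc2* (0.534 and 0.648). *Mb* correlated with no slow troponin beyond a size of 0.21 over the arrays.

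Among 6535 other genes, the one nearest to the mean of the 5 members was *Atp2a2* (r = 0.836), which encodes the calcium pump of the slow fibre and heart sarcoplasmic reticulum. *Bex1* (0.789), *Tnnt2* (0.753), the cardiac and embryonic troponin T, *Casq2* (0.748), the calcium store protein of slow fibres and heart, and *Myoz2* (0.725), a Z-disc protein of slow fibres, followed. The 95th percentile of all genes was 0.366. The mean was not scaled by gene, so the troponins, which vary most, weigh most in it. *Atp2a2* correlated at -0.344 with *Tpm3* and -0.078 with *Mb*, and *Casq2* at -0.625 and -0.197, so these neighbours go with the troponins and not with all 5 members. The nearest genes to single members were *Casq2* and *Hes6* for *Tnni1* (0.766 and 0.738), *Atp2a2* and *Myoz2* for *Tnnt1* (0.880 and 0.837), *Atp2a2* and *Fbxo17* for *Tnnc1* (0.788 and 0.745), *Cnn2* and *Tnni3* for *Tpm3* (0.912 and 0.870), and *Gngt1* and *Kcnh1* for *Mb* (0.638 and 0.635).

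**Figure D4:**
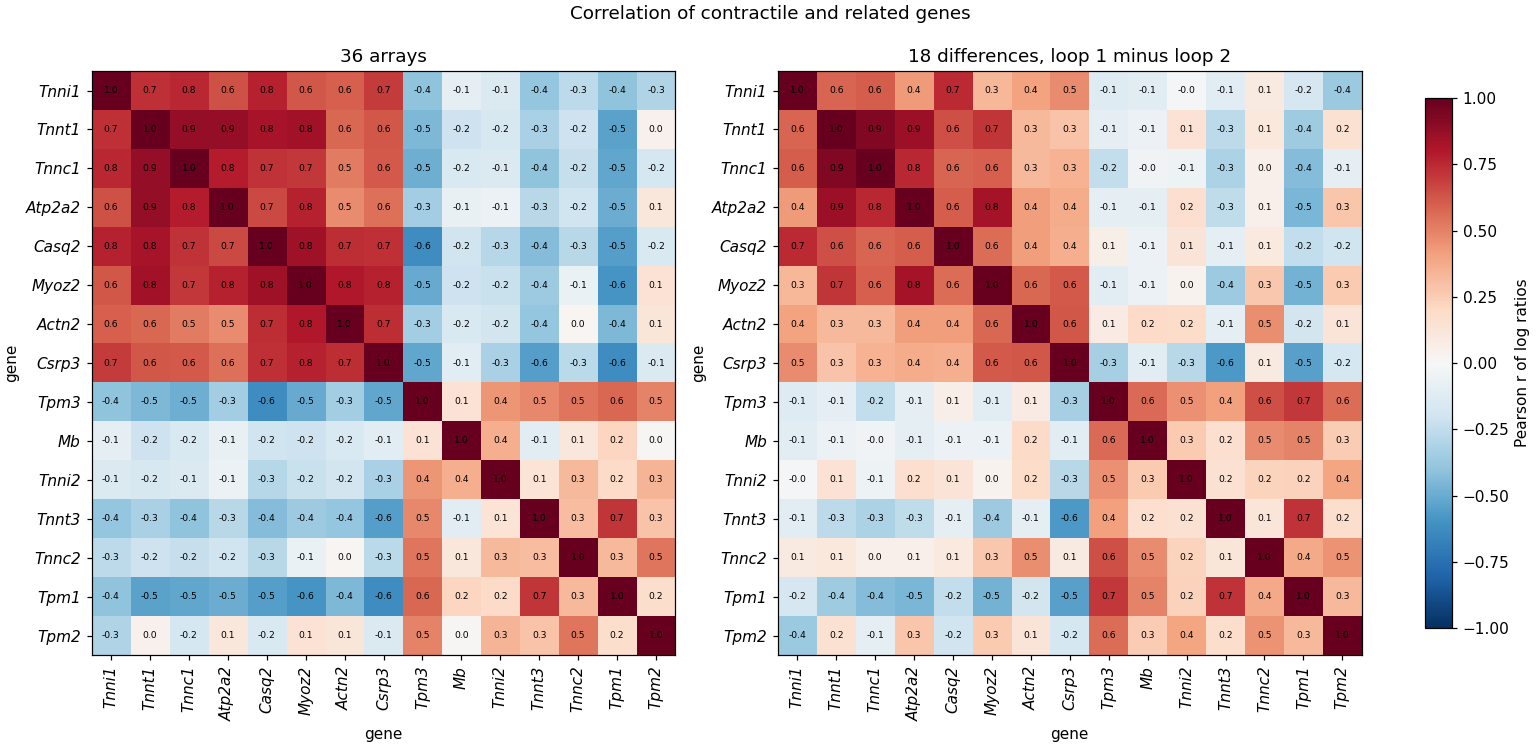
Pearson r between the log ratios of 15 contractile and related genes, over the 36 arrays (left) and over 18 differences of loop 1 minus loop 2 (right), with red for positive and blue for negative values. The 3 slow troponins form a positive block with *Atp2a2*, *Casq2* and *Myoz2*, and *Tpm3* is positive with the fast counterparts.

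Other proteins enriched in slow fibres changed in the direction of *Tnnt1* in part. Of 21 listed, 15 were measured. Between 1 and 20 weeks, 4.1% of all oligonucleotides fell in the mean of both strains and 1.7% rose. Of the 15 genes, 4 fell in this comparison and 0 rose. These were *Casq2* (-1.93 ± 0.23, adjusted p = 5.22e-06), *Myoz2* (-1.53 ± 0.28, adjusted p = 0.001), *Actn2* (-1.30 ± 0.23, adjusted p = 0.00065), an actin cross-linker of the Z-disc, and *Csrp3* (-1.03 ± 0.30, adjusted p = 0.0392), a stretch-associated Z-disc protein. The median of the list was -0.35, against -0.01 over all oligonucleotides. *Atp2a2*, the closest neighbour of the troponins, had a ratio of -0.35 ± 0.28 at 20 weeks and was not called. In BSG alone *Casq2* and *Actn2* fell, and in GSG alone *Casq2* and *Myoz2*, where 0.849% and 3.03% of all oligonucleotides fell. With the mean of the 3 troponins, 6 of the 15 genes correlated above 0.5 over the arrays, namely *Atp2a2*, *Casq2*, *Myoz2*, *Csrp3*, *Ankrd2* and *Actn2*, against 1.29% of all other oligonucleotides.

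Genes of oxidative metabolism, the energy supply of slow fibres, were listed at 21 and measured at 16. Of these 3 fell in the mean of both strains and 0 rose: the mitochondrial isocitrate dehydrogenase *Idh2* (-1.18 ± 0.22, adjusted p = 0.00111), the fatty acid binding protein *Fabp3* (-0.94 ± 0.27, adjusted p = 0.0364) and the fatty acid importer *Cpt1b* (-0.72 ± 0.22, adjusted p = 0.0495). The median was -0.12 in this mean, -0.64 in BSG with 12 of 16 genes below 0, and -0.035 in GSG with 9 of 16 below 0. Over all oligonucleotides 5.79% were called in this comparison. Of 24 measured regulators of slow fibre genes among 30 listed, 1 rose, the calcineurin subunit *Ppp3cc* (0.66 ± 0.13, adjusted p = 0.00212), and 0 fell. Of all oligonucleotides 1.7% rose and 4.1% fell, so this 1 call says little about the regulators as a group. The remaining 23, among them calcineurin, NFAT and MEF2 genes, were not called.

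The fast counterparts gave no call. *Tnni2* had a ratio of 0.39 ± 0.20 in the mean of both strains, *Tnnt3* 0.24 ± 0.21, *Tnnc2* 0.03 ± 0.38, *Tpm1* 0.42 ± 0.30 and *Tpm2*, a tropomyosin of both fibre types, -0.11 ± 0.27. Of 14 measured among 17 other fast fibre genes, 0 were called in this mean, where 5.79% of all oligonucleotides were. Set against its fast counterpart in the same mouse, the change of *Tnnc1* from 1 week was lower than that of *Tnnc2* in 16 of 16 GSG mice and 11 of 16 BSG mice. *Tnnt1* was lower than *Tnnt3* in 15 of 16 GSG and 8 of 16 BSG mice, and *Tnni1* lower than *Tnni2* in 15 of 16 GSG and 12 of 16 BSG mice. At 20 weeks the difference of slow minus fast change was negative in all 4 mice for each of the 3 pairs, between -2.30 and -0.19. The 16 mice of a strain share 2 mice of 1 week, so these counts carry no test.

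Some markers of other cells moved over the same ages. Of 11 measured macrophage markers 7 rose between 1 and 20 weeks in the mean of both strains (median 1.15), of which *Cd74* (1.75), *Mpeg1* (1.72), *Lyz1* (1.68) and *Ctss* (1.39) had the smallest adjusted p. Of 7 fibroblast markers 4 fell (median -0.77), *Col1a1* (-1.90), *Postn* (-1.34), *Sparc* (-1.13) and *Col5a2* (-0.77). Of 8 endothelial markers 4 fell (median -0.37), *Pecam1* (-0.77), *Cdh5* (-0.68), *Kdr* (-0.57) and *Tie1* (-0.35). Of 5 adipocyte markers 1 rose, *Adipoq* (0.43 ± 0.13, adjusted p = 0.044), of 7 Schwann cell markers 1 fell, *Pmp22* (-1.04), and of 4 erythroid markers 1 fell, *Alas2* (-0.83). The Schwann cell median was 0.07, with 4 of 7 markers above 0. *Lyz2* (-0.16) was the one macrophage marker below 0. The fibroblast markers *Col3a1* (0.80) and *Dcn* (0.23) lay above 0, and the erythroid *Epb42* (-0.04) and *Slc4a1* (0.10) near it. Over all oligonucleotides 1.7% rose and 4.1% fell, so a single call does not describe its list. The part of these cells in the values of the members was not tested. At 8 weeks the median of the macrophage list was 0.46 in BSG and 1.35 in GSG, with no marker called in either strain. Of the embryonic and cardiac genes listed, *Tnnt2*, *Tnni3* and *Mybpc3*, which encode cardiac or embryonic sarcomere proteins, the skeletal actin *Acta1* and the natriuretic peptide *Nppb* were measured, and none was called. The embryonic and neonatal myosins *Myh3* and *Myh8* are not analysed here.

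The quality of single arrays bears on these values. The 2 spots of an oligonucleotide correlated over all 8129 at -0.10 to 0.77 per array, with a median of 0.54, and 9 arrays lay below 0.3, of which 4 belong to loop 1 of BSG, 4 to loop 1 of GSG and 1 to loop 2 of GSG. Without these 9 arrays, *Tnnt1* remained called and *Tpm3* was no longer called (0.60) in the mean of both strains. The log ratios of a closed loop should sum to 0, and they summed to between -0.52 and 4.3 for *Tnnc1*, -2.0 and 3.09 for *Tnnt1*, 1.64 and 2.19 for *Tpm3*, -1.55 and 1.01 for *Tnni1* and -2.62 and -0.75 for *Mb*, against a median absolute sum of 0.93 to 0.97 over all oligonucleotides. A term for the dye in the fit leaves the estimates as they are, since each mouse is labelled once with each dye, and its effect on the calls of the members is given among the alternatives.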

How the data were processed

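RNA of quadriceps from 36 mice was amplified to cRNA, labelled with Cy3 or Cy5 and hybridised to 36 arrays of 65-mer mouse oligonucleotides. The deposited values are log2 ratios of the 2 channels, which the authors normalised for spatial, dye and array effects with the all.norm function of the smida R package. Neither the base nor the direction is stated in the sources used here. Base 2 was taken because values reach -12.0 and 11.5, and Cy5 (the later age) over Cy3 is likely: with it the fetal genes *Dlk1*, *H19* and *Mest* fell between 1 and 20 weeks in both strains (*Dlk1* -3.05 in BSG and -3.54 in GSG), while *Igf2* did not pass the test. The study reports a strong fall of *Dlk1* after 1 week, on the arrays and by quantitative PCR. With the opposite direction every sign turns, and *Dlk1* would rise, contrary to that report. Loops were taken from the sample numbers in the titles together with the design description.

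Duplicate spots were averaged to 8129 oligonucleotides, of which 6752 have 1 gene symbol, 7 several and 1370 none. No filter was applied, since 0 values are missing. Each strain was fitted with 8 later ages relative to 1 week in limma (version 3.58.1, R 4.3.3; lmFit and eBayes, 20 residual degrees of freedom shared by both strains). The temporal Hotelling test followed the equations of the study (3 and 30 degrees of freedom). p-values were adjusted by Benjamini-Hochberg over all 8129 oligonucleotides, with a threshold of 0.05. The number of arrays limits the precision. The fits were tested on simulated data. Single-mouse values are least squares estimates per loop. Where a gene had several oligonucleotides, the one whose log ratios were largest in size on average was used. All measured members and fast counterparts are named, with up to 4 called genes per list with the smallest adjusted p and the genes of counts of 5 or fewer, and the nearest genes by correlation, 5 for the mean of the members and 2 for each member. *Ankrd2* was named after its values were seen. The members and lists were chosen with earlier results of these data known. Alternatives were other centring, scaling, spot handling, dye and block terms, and leaving out each loop. Figures were drawn with matplotlib (version 3.10.9).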

Additional observations from a re-analysis of the deposited data

How the results depend on the processing

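Of the 5 members, 2 were called for 20 weeks against 1 week in the mean of both strains. That count became 0 when arrays were scaled to the same spread, 1 with the first spots alone, 1 with the second spots alone and 1 without the 9 arrays of discordant duplicate spots and 3 with duplicate spots as separate observations, and it lay between 0 and 3 with 1 loop left out. In GSG the count of 1 became 0 with scaled arrays, without moderation, with each strain fitted alone, with the first or the second spots alone and without the discordant arrays, 0 to 0 with 1 loop left out, and 2 with duplicate spots as separate observations. In BSG the count of 0 became 1 with duplicate spots as separate observations. For a change at any age the count of 0 became 2 in BSG and 2 in GSG with separate spots, and 1 in GSG with a dye term. These causes were not tested.

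The call of *Tnnt1* in the mean of both strains was lost with scaled arrays (-1.05) and the first spots (-1.40), and that of *Tpm3* with scaled arrays (0.61) and the second spots (0.70), which also ended its call at 2.5 weeks. Some uncalled values changed sign with 1 loop left out: *Tnnc1* at 20 weeks in BSG (-1.60 to 0.10), and, for 6 to 20 against 1 to 4 weeks, *Tnnt1* in BSG (-0.12 to 0.21, and -0.12 with the second spots) and *Tnni1* in GSG (-0.70 to 0.10). *Tpm3* at 4 weeks was -0.28 without the discordant arrays. The strain difference at 20 weeks had no stable sign with 1 loop left out for *Tnni1* (-0.91 to 0.65, and 0.005 with the first spots), *Tnnt1* (-0.60 to 0.89), *Tnnc1* (-0.50 to 1.20) and *Mb* (-0.13 to 0.047, and 0.29 with the second spots). With a dye term the adjusted p of *Tpm3* at 20 weeks in the mean of both strains was 0.00241.

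Loop numbers do not pair mice across strains: the deviations of equally numbered arrays correlated between -0.28 and 0.19. Each loop of each strain was also taken as its own random block. The members called then stayed 0 in BSG, 1 in GSG and 2 in the mean of both strains. All calls in these comparisons changed from 104 to 190, 304 to 464 and 471 to 657. Over all alternatives these 3 counts of calls ranged from 1 to 373, 83 to 471 and 114 to 702. The spread in the fit, of mice and arrays together, was estimated with 2 mice per age.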
